A study of Arabidopsis thaliana with 12 samples.

Results

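AT3G27550, AT4G30150 and AT4G31930 are 3 nuclear genes of Arabidopsis thaliana that were brighter in stem than in leaf. They were chosen by locus, as the genes named alone on their probe, and the choice rested on the stem and leaf values themselves. Each has 1 probe, so they make up 3 of the 691 genes that had a probe of their own on the array. Their differences between stem and leaf are therefore descriptions and carry no test. All 12 samples were total RNA of wild-type plants of ecotype Columbia 0, 6 of leaves and 6 of stem material, each numbered 1 to 6 within its tissue. The labels give no age, growth condition or treatment, and do not say that samples of a tissue came from separate plants.

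AT3G27550 is annotated with a CRM domain, an RNA-binding fold shared with a bacterial ribosome-associated protein. Plant proteins with this domain are best known for splicing introns of chloroplast and mitochondrial transcripts. AT4G30150 is annotated as an Urb2/Npa2-type protein, and in baker's yeast the protein of that name acts in the nucleolus during early assembly of the large ribosomal subunit. AT4G31930 belongs to the mitochondrial glycoprotein family, whose best-studied relatives are MAM33 of yeast and p32 of human, acidic proteins of the mitochondrial matrix. These roles are background from family membership and from other species.

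The deposited intensities run from 0 to 100, and the median probe lay at 0.104 to 0.154 in leaf arrays and at 0.154 to 0.324 in stem arrays. Samples with neighbouring numbers (1 and 2, 3 and 4, 5 and 6) resembled each other more than other samples of their tissue, with rank correlations over 1204 bright probes of 0.88 to 0.91 in leaf and 0.97 to 0.98 in stem. Leaf 1 and leaf 2 also stood apart from the other leaf samples. Their correlation with leaf 3 to 6 was 0.65 to 0.68, against 0.80 to 0.83 between non-neighbouring samples of leaf 3 to 6. With stem their correlation was 0.62 to 0.77, against 0.46 to 0.59 for leaf 3 to 6. Leaf 1 and leaf 2 were thus about as like stem as like the other leaf samples. The values of each gene are therefore given by pair of numbers and without numbers 1 and 2. Of 26 leaf photosynthesis genes listed as tissue markers, 6 could be tested, and 0 were lower in stem while 1 was higher; over the array, 10.1% of tested probes passed as lower and 14.1% as higher. That gene was PSBW, a small photosystem II subunit, at 1.62 ± 0.42 (log2 stem minus leaf, SE, limma adjusted p = 0.013). With neighbouring numbers averaged its difference was the same and its adjusted p was 0.14, and with each array centred on its median the difference was 0.96 (adjusted p = 0.19). The marker check depended on the scaling. With median centring 3 of the 6 passed as lower in stem and 0 as higher, beside 315 and 257 of all 2657 tested probes. In the deposited values 1 of the 6 passed in each direction, beside 160 probes lower and 675 higher. With neighbouring numbers averaged, on quantile-normalized values, 0 of the 6 passed in either direction, beside 18 probes lower and 27 higher. Those lower with median centring, named after their values were seen, were the antenna gene LHB1B2 by -1.22 (adjusted p = 0.0040), the photosystem II gene PSBY by -0.89 (adjusted p = 0.0044) and the Calvin cycle gene PRK by -0.78 (adjusted p = 0.017). LHB1B2 also passed as lower in the deposited values, by -0.65 (adjusted p = 0.0030). None of 23 listed stem vascular and secondary wall genes had a probe of its own, so the stem label could not be checked in this way.

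AT3G27550, the CRM-domain gene, was bright in stem and, in deposited units, even there, and it was uneven in leaf. Its deposited intensity was 0.648, 0.598, 0.597, 0.608, 0.690 and 0.674 in stem 1 to 6. In leaf 1 to 6 it was 0.309, 0.239, 0.132, 0.0839, 0.00406 and 5.82e-04. The stem values thus lay within 1.16-fold of each other, whereas the leaf values were spread out. Leaf 6 lay at the bottom of its array, where only 4 of the 2781 probes above 0 were dimmer, and leaf 5 had 40 of 2770 below it. The distance of these samples from the other leaf samples is therefore not a measured fold. The lowest stem value was 1.93 times the highest leaf value, so the deposited values of the tissues did not overlap, as held for 14.3% of tested probes in this direction. After log2 conversion and quantile normalization, which gives every array the same distribution, leaf had a mean of -4.48 ± 3.47 and stem a mean of -0.88 ± 0.41 (SD over n = 6 samples). The leaf SD, which includes those low values, was larger than that of 99.7% of the 2657 tested probes in leaf, and the stem SD was larger than that of 44.9% in stem.

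The size of the AT3G27550 difference depended on which leaf samples entered it. Over all samples it was 3.60 ± 1.20 (log2 stem minus leaf, SE), or 12.1-fold, a size that rests in part on leaf 6. Within numbers 1 and 2 it was 1.06, within 3 and 4 it was 1.81 and within 5 and 6 it was 7.94. Leaf 5 and leaf 6 were by far the lowest values, whereas stem 5 and stem 6 lay within the range of the other stem samples on the normalized scale. Without leaf 6 the difference was 2.43, or 5.40-fold, and it ranked 33rd among 2467 tested probes in place of 1st among 2657. Without numbers 5 and 6 in both tissues it was 1.43, or 2.69-fold, and without numbers 1 and 2 it was 4.68, or 25.6-fold.

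The lack of overlap in AT3G27550 also depended on the scale. On normalized values the gap between the lowest stem sample (stem 3, -1.43) and the highest leaf sample (leaf 1, -1.44) was only 0.013. With each array centred on its median, leaf 1 lay above 2 stem samples by up to 0.12. By its brightness rank within the array, leaf 1 stood at the 73.2nd percentile, above stem 3 at 71.2 and stem 4 at 71.9. In deposited units stem 3 and stem 4 were nonetheless as bright as stem 2. Within every number from 1 to 6 the stem sample had the higher rank.

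**Figure D1:**
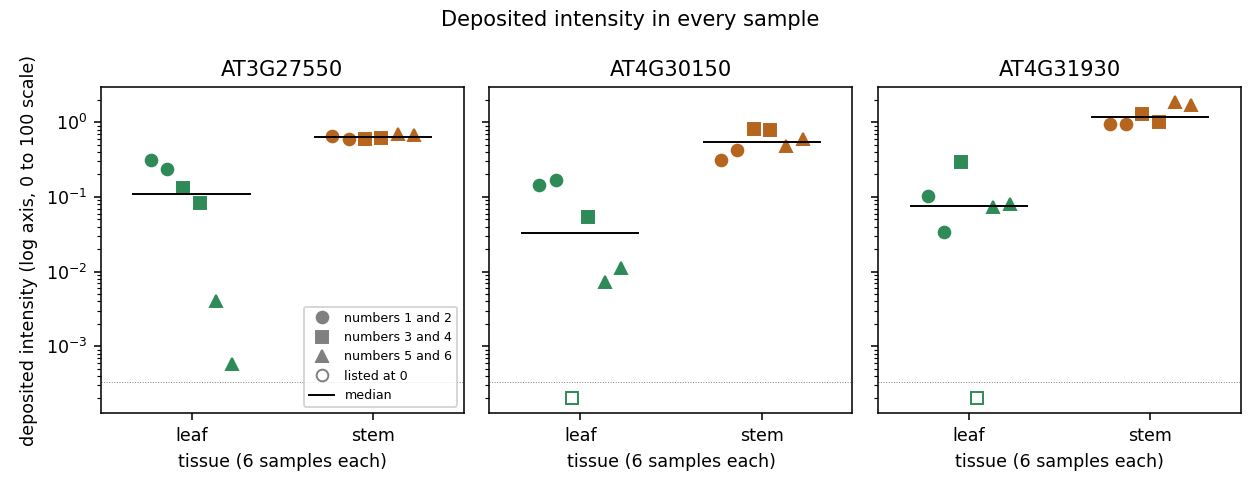
Deposited intensity (log axis) of the 3 genes in each of the 6 leaf and 6 stem samples, with marker shapes for pairs of numbers, open markers for samples listed at 0 and lines for medians. Stem values of AT3G27550 lie between 0.597 and 0.690, while its leaf values run from 5.82e-04 to 0.309; AT4G30150 and AT4G31930 are each at 0 in 1 leaf sample.

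AT4G30150, the Urb2/Npa2-type gene, was also low and uneven in leaf. Its deposited intensity in leaf 1 to 6 was 0.146, 0.171, 0, 0.0543, 0.00725 and 0.0111. In stem 1 to 6 it was 0.314, 0.428, 0.819, 0.795, 0.477 and 0.605. Every stem value exceeded every leaf value, as held for 14.3% of tested probes in this direction. The lowest stem value was 1.84 times the highest leaf value. Leaf 1 and leaf 2 were the highest leaf samples and stem 1 and stem 2 the lowest stem samples. What an exact 0 stands for is not given in the sources used here, and the 0 of leaf 3 was treated as missing in the normalized values.

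On normalized values AT4G30150 had a mean of -4.15 ± 1.85 in leaf (SD, n = 5) and -1.07 ± 0.27 in stem (n = 6). The difference was 3.07 ± 0.66 (log2 stem minus leaf, SE), or 8.40-fold, with leaf 3 left out by the missing value. It was 1.02 within numbers 1 and 2, 3.22 within 3 and 4 and 4.94 within 5 and 6. Leaf 5 and leaf 6 lay near the bottom of their arrays, with 67 of 2770 and 105 of 2781 probes above 0 dimmer. Their distance from the other leaf samples is therefore not a measured fold, and differences that include them rest in part on it. The stem SD was among the smaller ones, larger than that of only 19.2% of tested probes, whereas the leaf SD was larger than that of 93.4%. The difference was 4.21 without numbers 1 and 2 (18.4-fold) and 1.83 without numbers 5 and 6 (3.56-fold). In the deposited values it was 3.74, or 13.4-fold, and with zeros set to the lowest value above 0 of their array it was 4.65, or 25.1-fold.

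AT4G30150 kept its gap between the tissues on each scale examined. The gap was 0.67 on normalized log2 values, where 7.79% of tested probes also lacked overlap in this direction. With median centring it was 0.70. By rank within the array, leaf samples lay between the 11.4th and 59.6th percentiles and stem samples between the 69.6th and 80.3rd.

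AT4G31930, the mitochondrial glycoprotein family gene, had the widest gap between the tissues of the 3 genes on the normalized, deposited log2, median-centred and rank scales. Its deposited intensity in leaf 1 to 6 was 0.102, 0.0344, 0.295, 0, 0.0731 and 0.0795. In stem 1 to 6 it was 0.937, 0.955, 1.31, 1.02, 1.86 and 1.68. The lowest stem value was 3.18 times the highest leaf value, and 14.3% of tested probes likewise had no overlap in this direction. Stem 5 and stem 6 were the brightest samples, and leaf 3, not leaf 1 or 2, was the brightest leaf sample.

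On normalized values AT4G31930 had a mean of -3.06 ± 0.89 in leaf (SD, n = 5, leaf 4 missing) and 0.22 ± 0.50 in stem (n = 6). The difference was 3.27 ± 0.39 (log2 stem minus leaf, SE), or 9.68-fold. It was 3.69 within numbers 1 and 2, 1.60 within 3 and 4 and 3.90 within 5 and 6. The pair of numbers 1 and 2, which gave the smallest difference for AT3G27550 and AT4G30150, did not do so here. The difference was 2.91 without numbers 1 and 2 and 2.93 without numbers 5 and 6. It was 3.92, or 15.2-fold, without numbers 3 and 4, and 4.78, or 27.4-fold, with zeros at the floor. Its spread was ordinary in both tissues, with 61.0% of tested probes having a smaller leaf SD and 58.0% a smaller stem SD.

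Leaf 3 and leaf 4 disagreed for AT4G30150 and for AT4G31930, although these samples were otherwise alike. AT4G30150 was at 0 in leaf 3 and at 0.0543 in leaf 4, and AT4G31930 was at 0.295 in leaf 3 and at 0 in leaf 4. Such disagreement was common on these arrays. Of 3439 probes, 589 were at 0 in exactly 1 of the 2 samples. Among them, 89 were brighter in the other sample than AT4G31930 in leaf 3, and 368 were brighter than AT4G30150 in leaf 4.

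**Figure D2:**
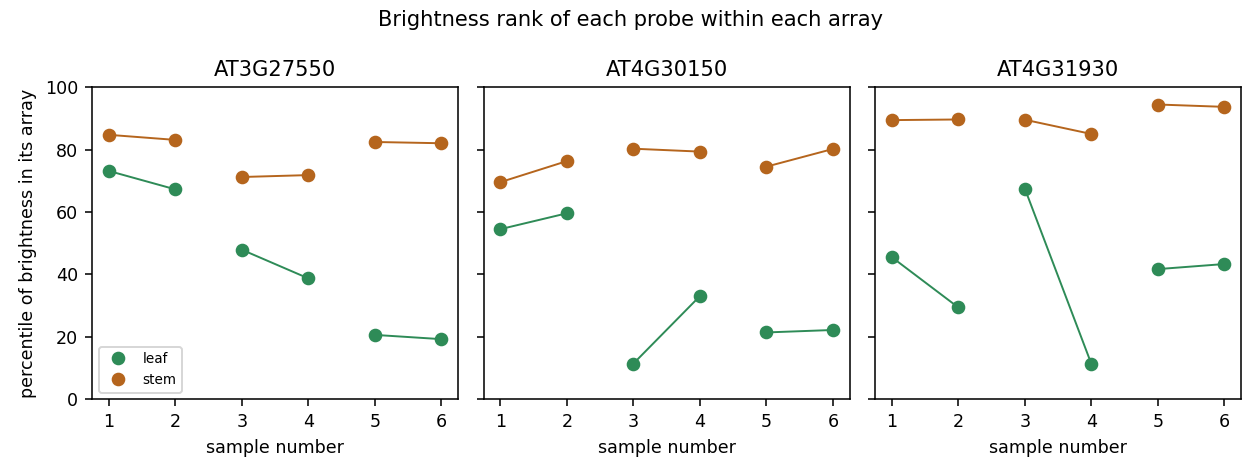
Percentile of brightness of each gene's probe among the 3439 probes of the same array, by sample number, with lines joining neighbouring numbers. Stem lies above leaf at every number for the 3 genes, but leaf 1 of AT3G27550 (73.2) is above stem 3 and stem 4 (71.2 and 71.9).

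All 3 genes lacked overlap between the tissues on normalized values above 0, as did 7.79% of tested probes in this direction (207 of 2657), a property that entered their choice. The difference exceeded 1 log2 unit in each of the 3 pairs of numbers for all 3 genes. The same held for 3.8% of tested probes (101), but these stem and leaf values also entered the choice of the genes. Within numbers 1 and 2, AT4G30150 (1.02) and AT3G27550 (1.06) lay just above that bar. Within numbers 3 and 4, AT4G30150 and AT4G31930 each had only 1 leaf value above 0. In the order of differences among tested probes AT4G31930 was 5th, AT4G30150 12th and AT3G27550 1st, and without leaf 6 they were 3rd, 24th and 33rd. Without numbers 5 and 6, AT4G31930 was 9th, AT4G30150 107th and AT3G27550 210th among 2528 tested probes. The median tested probe differed by 0.13 after normalization and by 0.62 in the deposited values. Measured from the former, the differences were 3.47 for AT3G27550, 3.15 for AT4G31930 and 2.94 for AT4G30150. In these tissue samples, fewer cells that hold a transcript and less of it per cell cannot be told apart.

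**Figure D3:**
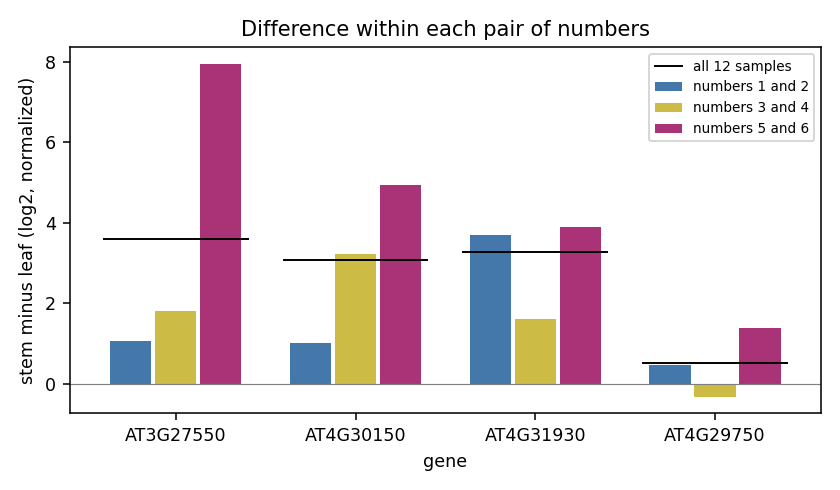
Stem minus leaf (log2 of normalized intensity) within numbers 1 and 2, 3 and 4, and 5 and 6 (bars), and over all 12 samples (lines), for the 3 genes and for AT4G29750, a listed CRM-domain relative. AT3G27550 runs from 1.06 to 7.94 over the pairs, AT4G31930 from 1.60 to 3.90.

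AT3G27550 and AT4G30150 correlated closely over the samples, though not through their stem values, and AT4G31930 correlated less with either. Over the 11 samples in which both were above 0, normalized levels of AT3G27550 and AT4G30150 correlated at r = 0.91, and their deviations from the tissue means at r = 0.86. AT4G31930 correlated with AT3G27550 at 0.58 in levels (11 samples) and at -0.037 in deviations. With AT4G30150 it correlated at 0.69 in levels (10 samples) and at -0.37 in deviations. These samples share neighbouring numbers and the arrays' scaling, and r over both tissues includes the tissue difference for which the genes were chosen. The low values of leaf 5 and leaf 6 were common to AT3G27550 and AT4G30150. In stem the order of these genes was opposite. The stem mean of numbers 1 and 2 was the highest for AT3G27550 (-0.54) and the lowest for AT4G30150 (-1.31). That of numbers 3 and 4 was the lowest for AT3G27550 (-1.41) and the highest for AT4G30150 (-0.87).

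Among the other genes with their own probe, those most like each gene in level were found by the same correlation. For AT3G27550 they were AT1G50390 (r = 0.94, 12 samples), AT4G30150 and AT3G02690 (r = 0.91, 12 samples), out of 499 genes. For AT4G30150 they were AT1G13370 (r = 0.98, 11 samples), AILP1 (r = 0.96, 10 samples), an aluminium-induced-like protein gene, and AT4G04370 (r = 0.96, 11 samples), out of 471. For AT4G31930 they were AT5G66050 (r = 0.94), AT4G20300 (r = 0.90) and AT2G46850 (r = 0.90), each over 11 samples and out of 467. High values were common, since 21.0%, 27.6% and 22.9% of these genes correlated above 0.5 with AT3G27550, AT4G30150 and AT4G31930.

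By deviations from the tissue means, the likeness of AT4G30150 was again highest with AT1G13370 (r = 0.95) and AT4G04370 (r = 0.94), followed by AT1G50390 (r = 0.93). AT3G27550 was closest to AT4G14380 (r = 0.90), AT1G50390 (r = 0.90) and AT5G52530 (r = 0.89). AT1G50390 was thus among the nearest genes of both AT4G30150 and AT3G27550. AT4G31930 was closest to AT3G59300 (r = 0.89), AT1G03660 (r = 0.78) and AT5G66050 (r = 0.77). In deviations, 16.8%, 21.7% and 10.7% of the candidate genes correlated above 0.5 with AT3G27550, AT4G30150 and AT4G31930.

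**Figure D4:**
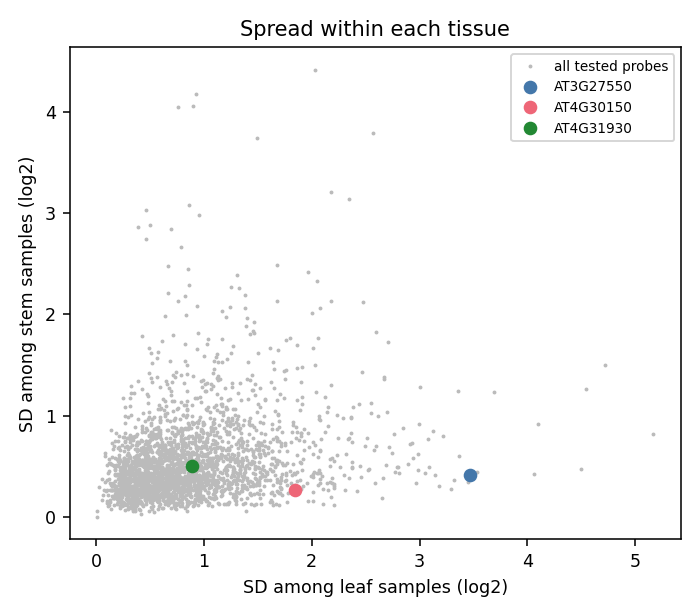
SD among stem samples against SD among leaf samples (log2 of normalized intensity) for the 2657 tested probes (grey) and the 3 genes. AT3G27550 has a leaf SD of 3.47 and a stem SD of 0.41, AT4G30150 has 1.85 and 0.27, and AT4G31930 has 0.89 and 0.50.

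Relatives of the 3 genes were scarce on the array. Of 15 other CRM-domain genes listed, 1 had its own probe, AT4G29750. Its deposited intensity was 0.0709, 0.0654, 0.0364, 0.0613, 0.00787 and 0.0226 in leaf 1 to 6 and 0.115, 0.0949, 0.0926, 0.112, 0.0773 and 0.0720 in stem 1 to 6. Leaf 5 was the lowest leaf sample, and the lowest stem value lay just above the highest leaf value. On normalized values the tissues overlapped, at means (± SD over 6 samples) of -4.42 ± 1.02 for leaf and -3.91 ± 0.74 for stem. The difference of 0.51 ± 0.54 (log2 stem minus leaf, SE) did not pass the threshold (limma adjusted p = 0.53), where 24.2% of tested probes passed in either direction. It was -0.39 (adjusted p = 0.81) with zeros at the floor and 1.40 (adjusted p = 0.072) in the deposited values.

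Of 9 other listed genes of the mitochondrial glycoprotein family, 1 had its own probe, AT5G02050. It was listed at 0 in all 6 stem samples and in leaf 1, 4, 5 and 6, with 0.0112 in leaf 2 and 0.138 in leaf 3, so it could not be tested. Leaf 3, the brightest leaf sample of AT4G31930, was the brightest sample here too. Of 36 listed ribosome assembly factors, 28 mitochondrial housekeeping genes and 50 genes with a ribosomal protein symbol, 0 had a probe of their own. The data therefore say nothing of these pathways beyond the 3 genes and the 2 relatives.

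**Figure D5:**
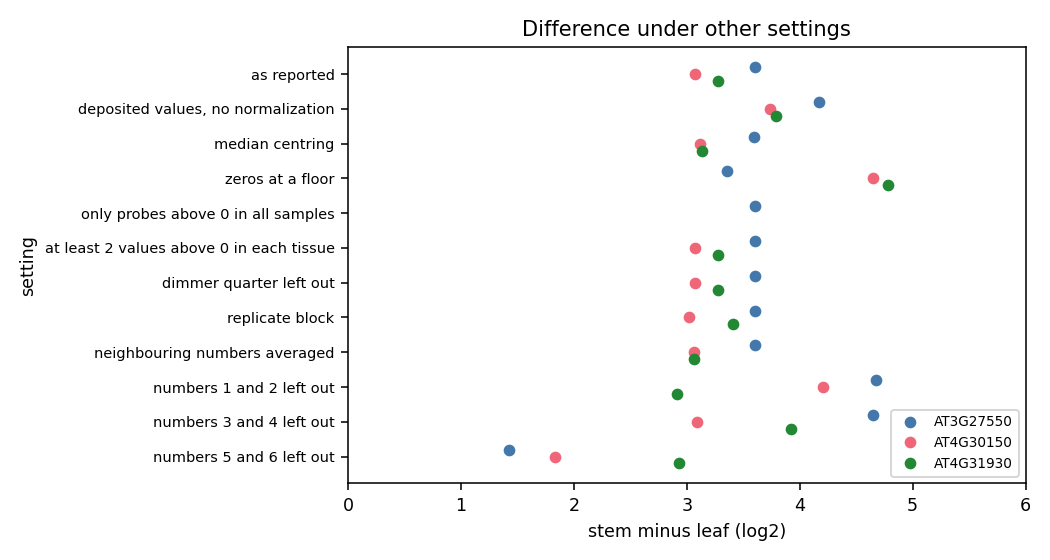
Stem minus leaf (log2) of the 3 genes as reported and under the other settings (points). The settings that left out single samples are not drawn. In a setting that is drawn, a missing point means that the gene could not be fitted there. All points lie above 0, from 1.43 for AT3G27550 without numbers 5 and 6 to 4.78 for AT4G31930 with zeros at the floor. The genes were chosen as brighter in stem in these same samples.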

How the data were processed

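The authors deposited 1 table of linear array intensity for 3439 probes and 12 samples; how background was corrected and values scaled, and what 0 means, is not given in the sources used here. Intensities were converted to log2 with zeros missing and quantile normalized. Probes with at least 4 values above 0 in each tissue were tested (2657; 782 set aside). The comparison used limma 3.58.1 (R 4.3.3, statmod 1.5.0): lmFit and a two-sided eBayes test with trended, robust variances, p-values adjusted by Benjamini-Hochberg over all tested probes and called below 0.05. The fit was checked on simulated data with independent noise in every sample, so that check does not cover the likeness of neighbouring numbers. The number of arrays limits the precision, and the p-values rest on a spread between samples that may be technical.

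Genes were named by the array's annotation, updated by gene ID through a RefSeq table (TAIR10.1): 692 probes had 1 gene, 870 several and 1877 none. No probe with several genes included any of the 3 genes. Members and lists were chosen with earlier results of these data known. The other named genes are, per gene, the 3 most correlated genes (at least 10 shared samples), and per list those past the threshold or with the smallest p. Over 1870 probes, deviations from the tissue mean correlated at 0.17 to 0.26 between same-numbered leaf and stem samples. Between different numbers they correlated at -0.17 to 0.15. The labels give only the shared number, and the main comparison did not pair samples by it. Pairing by that number entered only the replicate block, as another setting, and the values described by number. The grouping of neighbouring numbers was taken from the data. Figures used matplotlib 3.10.9.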

Additional observations from a re-analysis of the deposited data

How the results depend on the processing

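Over the array, 643 probes passed the threshold (374 higher, 269 lower in stem; 58.2% higher). The count was 835 in the deposited values (80.8% higher), 572 with median centring (44.9% higher) and 480 with zeros at the floor (42.5% higher), so the balance depends on the scaling. It fell to 45 with neighbouring numbers averaged, to 266 without numbers 3 and 4 and to 202 without numbers 5 and 6, but rose to 859 without numbers 1 and 2, with as few samples; the settings without 3 and 4 or 5 and 6 were chosen after seeing the data, and the cause of these moves was not tested. With the replicate block it was 708, and the block changed the call of neither AT4G29750 nor PSBW. Leaving out single samples gave 512 to 716 probes. The same left AT3G27550 at 2.43 to 4.17, AT4G30150 at 2.52 to 3.54 and AT4G31930 at 2.94 to 3.56 (log2). The difference of the 3 genes was above 0 under all settings that yielded a value. The genes were chosen as brighter in stem in these same samples, so that sign is no independent support. Zeros at the floor moved AT4G30150 to 4.65 and AT4G31930 to 4.78. Their 0 in 1 leaf sample then enters as a low value, and the normalization of all probes changes too. AT3G27550, which has no 0, moved to 3.35. What each change contributed was not tested. AT4G29750 turned to -0.39 with zeros at the floor; the cause was not tested. Requiring values above 0 in all samples leaves out AT4G30150 and AT4G31930. The size of the AT3G27550 and AT4G30150 differences rests in part on dim leaf values. Without numbers 5 and 6 they were 1.43 and 1.83, and that of AT4G31930 was 2.93.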
